A study of Mus musculus with 2 samples.

Results

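The 36 genes described here encode the contractile, calcium-handling and energy-supplying machinery of skeletal muscle, a tissue that lies outside the bone marrow. They were chosen by name, with earlier results of these arrays known, and every probe annotated with such a name was read. Of the 36 genes, 34 had at least 1 named probe, with 70 probes in all, among 19057 genes and 45281 probes on the array. Myh2 and Myh3 were not analysed here, because no probe was annotated with either name.

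The study measured messenger RNA of femoral marrow at 8 days of age and was titled as a study of haematopoiesis in mutants of Dnmt2, an RNA methyltransferase that acts on transfer RNA. The groups were wild type mice and Dnmt2-/- mice of the same age, with 1 Illumina MouseWG-6 v2.0 bead array each. No strain, sex, mutant allele or treatment is named in the labels, nor the number of animals behind each RNA sample. Since each genotype had a single array, no difference has an error or a test, and each describes these 2 arrays rather than the genotypes. Wherever a pair of signals follows in 1 sentence, the array labelled wild type comes first and the array labelled Dnmt2-/- second, in intensity units as deposited.

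Detection required a p-value under 0.01 from the scanner table, and with it 41.4% and 43.2% of all probes were detected on the arrays labelled wild type and Dnmt2-/-, and the fitted background was 90.9 (SD 3.16) and 94.9 (SD 3.43) intensity units. The targeted gene did not check the labels. The brightest probe of Dnmt2 (Trdmt1) read 112.4 and 148.8 (log2 0.62), and another probe detected on both arrays gave -0.27. Its other probes, detected on the array labelled Dnmt2-/- only, read 84.1 and 113.3, and 97.1 and 118.2. Where the probes lie relative to the mutation was not examined. Xist was higher by at least 38.3-fold on the array labelled wild type, and Y-linked Eif2s3y by at least 16.7-fold on the other, so sex and genotype label cannot be told apart. Of 11 measured genes of marrow blood cells all were detected on both arrays and all lay within 1.5-fold, from -0.23 for Ltf to 0.13 for S100a8 on the log2 scale. The labelled tissue was thus borne out by its measured markers.

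In striated muscle, myosin of the thick filament pulls on actin of the thin filament, and calcium released from the sarcoplasmic reticulum frees the thin filament by binding troponin C. The contraction cycle is paid for by ATP, which creatine kinase, glycogen breakdown and, in oxidative fibres, mitochondria supply. Slow fibres and fast fibres use different paralogues of myosin, myosin light chain and troponin, and embryonic and perinatal myosins precede the adult forms in young muscle. Several slow fibre genes, among them Myl2, Myl3 and Tnnc1, are also the forms used by heart muscle.

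The DNA before the start of 5 members is shown first, because these genes carry the contrast within the slow fibre group and within the myosin gene cluster that the values below describe. Each window runs from 250 bases before to 50 bases after the annotated start in RefSeq (GRCm38.p6), 5′ to 3′ on the gene's strand. Capitals mark E boxes (CANNTG, the site read by myogenic factors of the MyoD family), MEF2 motifs and CArG boxes, searched on both strands. Tnnc1 lies at chr14:31208062-31208361 on the plus strand, Myl3 at chr9:110763428-110763727 on the plus strand and Tnnt1 at chr7:4515926-4516225 on the minus strand. Myh8 lies at chr11:67276874-67277173 and Myh4 at chr11:67237562-67237861, both on the plus strand.
Tnnc1: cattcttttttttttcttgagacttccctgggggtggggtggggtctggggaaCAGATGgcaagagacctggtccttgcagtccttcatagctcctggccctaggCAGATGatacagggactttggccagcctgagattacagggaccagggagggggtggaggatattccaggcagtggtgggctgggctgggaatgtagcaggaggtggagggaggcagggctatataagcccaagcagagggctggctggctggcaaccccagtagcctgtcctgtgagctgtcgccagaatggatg
Myl3: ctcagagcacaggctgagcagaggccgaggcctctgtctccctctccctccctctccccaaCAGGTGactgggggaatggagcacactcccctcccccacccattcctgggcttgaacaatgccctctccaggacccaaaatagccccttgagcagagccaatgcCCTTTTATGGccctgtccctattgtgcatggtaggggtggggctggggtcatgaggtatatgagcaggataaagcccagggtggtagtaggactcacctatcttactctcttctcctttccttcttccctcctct
Tnnt1: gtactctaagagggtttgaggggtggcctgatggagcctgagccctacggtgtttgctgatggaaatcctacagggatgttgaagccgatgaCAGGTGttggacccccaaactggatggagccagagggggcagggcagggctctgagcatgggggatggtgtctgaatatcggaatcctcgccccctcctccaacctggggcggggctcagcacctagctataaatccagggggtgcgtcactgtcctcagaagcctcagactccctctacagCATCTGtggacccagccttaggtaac
Myh8: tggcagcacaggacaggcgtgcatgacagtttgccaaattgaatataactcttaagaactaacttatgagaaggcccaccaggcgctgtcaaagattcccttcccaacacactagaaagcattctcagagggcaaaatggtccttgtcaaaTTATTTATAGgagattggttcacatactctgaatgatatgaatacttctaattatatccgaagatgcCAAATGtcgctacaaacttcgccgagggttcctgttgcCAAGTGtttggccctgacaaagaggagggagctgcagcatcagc
Myh4: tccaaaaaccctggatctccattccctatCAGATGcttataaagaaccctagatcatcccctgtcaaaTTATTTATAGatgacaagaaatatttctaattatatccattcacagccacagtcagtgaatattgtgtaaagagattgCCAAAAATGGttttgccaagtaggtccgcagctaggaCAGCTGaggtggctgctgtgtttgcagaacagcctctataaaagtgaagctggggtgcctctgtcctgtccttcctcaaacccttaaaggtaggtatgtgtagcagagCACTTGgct

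The Tnnc1 window held 2 E boxes, the Tnnt1 window 2, and the Myl3 window 1 with 1 CArG box. The Myh8 window held 2 E boxes and 1 MEF2 motif, and the Myh4 window 3 E boxes, 1 MEF2 motif and 1 CArG box. No motif overlapped another of a different kind in these 5 windows. Among the 30 members with a window, 27 held an E box, 5 a MEF2 motif (Myh1, Myh4, Myh8, Pvalb and Ttn) and 3 a CArG box (Acta1, Myh4 and Myl3). Some members had more than 1 window: of the 36 windows of these members, 32 held an E box, 5 a MEF2 motif and 3 a CArG box. Over all 32851 windows of this length in the table, 72.3% held an E box, 3.19% a MEF2 motif and 1.63% a CArG box. These matches describe the letters only.

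As a group the muscle genes read higher on the array labelled Dnmt2-/-. Of the 34 genes with a probe, 28 were detected on both arrays, Sln and Tnni1 on the array labelled Dnmt2-/- only, and Neb, Myh7, Casq1 and Pygm on neither. Among the 28, 24 were higher on the array labelled Dnmt2-/-, where 48.3% of all genes detected on both arrays were higher, and 16 were higher by at least 1.5-fold, where 6.61% of all genes were. None of the 28 was lower by 1.5-fold, against 5.16% of all genes, and 8 were higher by at least 2-fold, against 1.08%. Their median log2 ratio, array labelled Dnmt2-/- over array labelled wild type, was 0.69 (1.61-fold), beside -0.02 over 9746 genes. The range within the group was wide, from -0.29 for Tpm2 to 2.22 for Myl3.

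In bulk tissue a larger share of muscle cells and more RNA per cell cannot be told apart. The higher level of these genes was among the earlier results known when they were chosen. With median scaling the median of all genes moved from -0.02 to 0.14 and the share of higher genes among all those past 1.5-fold from 56.1% to 88.2%, while the members past 1.5-fold were 17 higher and none lower. In that setting 13.8% of all genes were higher and 1.84% lower by at least 1.5-fold.

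**Figure D1:**
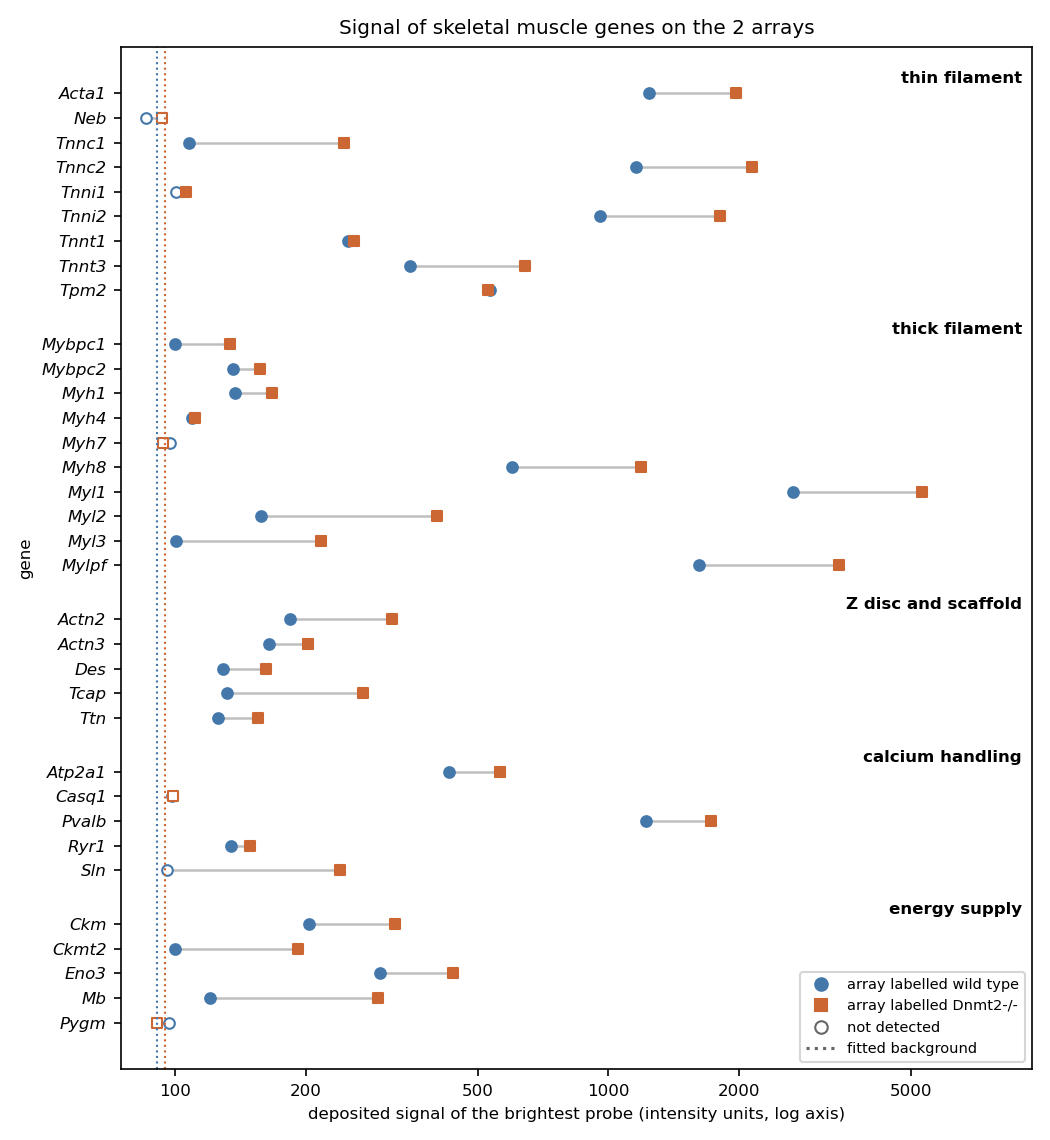
Deposited signal of the brightest probe of each of the 34 measured muscle genes (intensity units, log axis) on the array labelled wild type (circles) and the array labelled Dnmt2-/- (squares), grouped by role. Open symbols were not detected and dotted lines mark the fitted backgrounds of 90.9 and 94.9. Myl3, Tnnc1, Ckmt2 and Sln start near background on the array labelled wild type, while Myl1, Mylpf, Acta1, Tnnc2 and Pvalb lie far above it on both.

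The thin filament genes were mostly higher on the array labelled Dnmt2-/-, with the slow troponins split. Of 9 genes, 7 were detected on both arrays, 5 of them higher by at least 1.5-fold. Tnnc1, the troponin C of slow and heart muscle, read 107.7 and 245.2 (log2 2.07, 4.19-fold). It stood close to background on the former and clear of it on the latter, and without background correction its log2 ratio was 1.00. The troponin C of fast fibres, Tnnc2, read 1157.05 and 2148.1 (log2 0.83, 1.77-fold). Both arrays measured Tnnc2 far above background.

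The inhibitory troponin of fast fibres, Tnni2, read 958 and 1809 (log2 0.84, 1.79-fold), and Tnnt3, the fast troponin T, read 348.4 and 642.6 (log2 0.79, 1.73-fold). Their slow counterparts were not higher. Tnnt1, the slow troponin T, read 250.1 and 258.2, a log2 ratio of -0.28 after normalization, and Tnni1, the slow inhibitory troponin, read 100.6 and 105.6, detected on just the latter and with no fold above 1. Tnnt1 was thus well measured and near equal, whereas Tnni1 was near background on both arrays.

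Acta1, the skeletal muscle actin, read 1239.55 and 1972.7 (log2 0.59), just past 1.5-fold. Tpm2, the beta tropomyosin that winds along actin and is also made in smooth muscle, gave opposite signs in different probes. Its brightest probe read 532.7 and 527.7 (log2 -0.29), while another probe detected on both arrays read 201.4 and 353.7 (log2 0.81). The third probe was not detected on either array. Neb, the giant ruler protein of the thin filament, was not detected, with signals of 85.5 and 93.0 from its only probe.

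The thick filament group held the largest log2 ratio among members detected on both arrays, in Myl3, and also genes that were near equal. Of 12 genes, 9 were detected on both arrays, with a median of 0.94, 6 of them higher by at least 1.5-fold. Myl3, the essential light chain of slow and ventricular myosin, read 100.2 and 216.5 (log2 2.22, 4.64-fold). Myl2, the regulatory light chain of the same myosins, read 158.1 and 402.5 (log2 1.66, 3.15-fold). On the array labelled wild type Myl3 lay within 3 background SDs of the background and Myl2 clearly above it, and without background correction Myl3 was 1.93-fold higher.

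The fast light chains were lower in ratio but bright. Mylpf, the fast regulatory light chain, read 1620 and 3406 by its brightest probe (log2 1.06, 2.09-fold) and 1304.7 and 2077.1 by its other probe (log2 0.59). Myl1, the fast essential light chain, read 2669 and 5307 (log2 1.02, 2.02-fold), and its other probes gave 1.57 and 0.54. All 5 probes of these genes were detected on both arrays and higher on the array labelled Dnmt2-/-, although the ratio of Myl1 varied by about 1 log2 unit between its probes.

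Myosin heavy chains of a gene cluster differed in ratio, with Myh8 bright and Myh1 and Myh4 dim. RefSeq (GRCm38.p6) orders the cluster on chromosome 11 as Myh3, Myh2, Myh1, Myh4, Myh8 and Myh13. Myh8, the perinatal myosin, read 598.8 and 1186 by its brightest probe (log2 0.89, 1.85-fold), and its other probes both gave 0.72. Its neighbour Myh4, the myosin of the fastest adult fibres, read 109.1 and 111.0 (log2 -0.28), and Myh1, the IIx myosin of adult fast fibres, read 137.6 and 167.3 (log2 0.16). Myh8 was therefore measured clearly apart from background on both arrays by 3 probes, Myh1 by 1 of its 2, and Myh4 close to it. By signal minus background, centred on all genes, Myh8 was at 0.85, Myh1 at 0.38 and Myh4 at -0.42.

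Myh7, the slow myosin on chromosome 14, was not detected by any of its 3 probes on either array, the brightest reading 97.2 and 93.9. No probe sequences were used here, and whether a probe also binds another of the closely related myosin messengers was not tested. The myosin binding proteins also differed: Mybpc1, the slow form, read 99.8 and 133.7 (log2 0.94, 1.92-fold), and Mybpc2, the fast form, read 135.6 and 156.8 (log2 0.03). On the array labelled wild type Mybpc1 lay within 3 background SDs of the background, and its log2 ratio was 0.30 without background correction.

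The Z disc and its scaffold were higher to a lesser degree, with all 5 genes detected on both arrays, a median of 0.30 and 2 genes past 1.5-fold. Tcap, the telethonin that caps titin at the Z disc, read 131.4 and 271.3 (log2 1.44, 2.72-fold), with 1.77-fold without background correction, and its other probe gave 0.88. Actn2, an alpha actinin of all fibre types and heart, read 184.4 and 315.6 (log2 0.80, 1.74-fold), and a further probe detected on both arrays gave 0.86. Actn3, the alpha actinin of fast fibres, read 164.8 and 202.3 (log2 0.13) by its brightest probe but 120.2 and 181.2 (log2 0.87) by another. Its probes thus placed it on either side of 1.5-fold.

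Des, the intermediate filament desmin, which smooth muscle also makes, read 129.1 and 162.3 (log2 0.30). Ttn, the elastic giant titin, read 125.3 and 155.0 by its brightest probe (log2 0.28). The Ttn probes were nearly all dim: of 12 only that one was detected on both arrays, and the log2 ratios of the others ran from -0.35 to 0.21.

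Among the genes of calcium handling, Sln was the one higher by at least 1.5-fold. Of 5 genes 3 were detected on both arrays and none of these passed 1.5-fold. Atp2a1, the calcium pump of fast fibres, read 427.6 and 560.6 (log2 0.20), and Pvalb, the calcium buffer parvalbumin of fast fibres, read 1224 and 1726 (log2 0.40). Ryr1, the calcium release channel, read 134.2 and 148.5 by its brightest probe (log2 -0.09), whose ratio was above 0 with median scaling. The other Ryr1 probes detected on both arrays gave -0.20 and -0.42. Casq1, the calcium store protein of fast fibres, was not detected, at 98.4 and 98.7.

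Sln, sarcolipin, is a small inhibitor of the calcium pump found in slow muscle, neonatal muscle and the atria. Its brightest probe read 95.6, below the detection limit, and 239.6, higher by at least 6.58-fold. That limit depended on the treatment of background and was 2.24-fold without background correction. Its other probe was not detected on either array, at 85.9 and 94.1.

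In the main processing energy supply had the highest role median, 1.27 over the 4 of 5 genes detected on both arrays, 3 of them past 1.5-fold. That order depended on the treatment of background, and without background correction its median fell below that of the thick filament genes. Mb, the oxygen store myoglobin, read 120.2 and 293.2 (log2 1.95, 3.86-fold), with 0.76 in its other probe. Ckmt2, the mitochondrial creatine kinase of striated muscle, read 99.9 and 191.6 (log2 1.95, 3.86-fold), and its other probe, detected on the array labelled Dnmt2-/- only, read 93.3 and 164.7. Ckmt2 lay within 3 background SDs of the background on the array labelled wild type. Without background correction Mb was 2.12-fold and Ckmt2 1.73-fold higher. Ckm, the cytosolic creatine kinase, read 204.0 and 320.8 (log2 0.59, just past 1.5-fold).

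Of the genes of glycogen and glucose breakdown 1 was detected. Eno3, the muscle enolase, read 296.2 and 437.3 (log2 0.42). Pygm, the muscle glycogen phosphorylase, was not detected on either array, at 96.7 and 90.9.

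**Figure D2:**
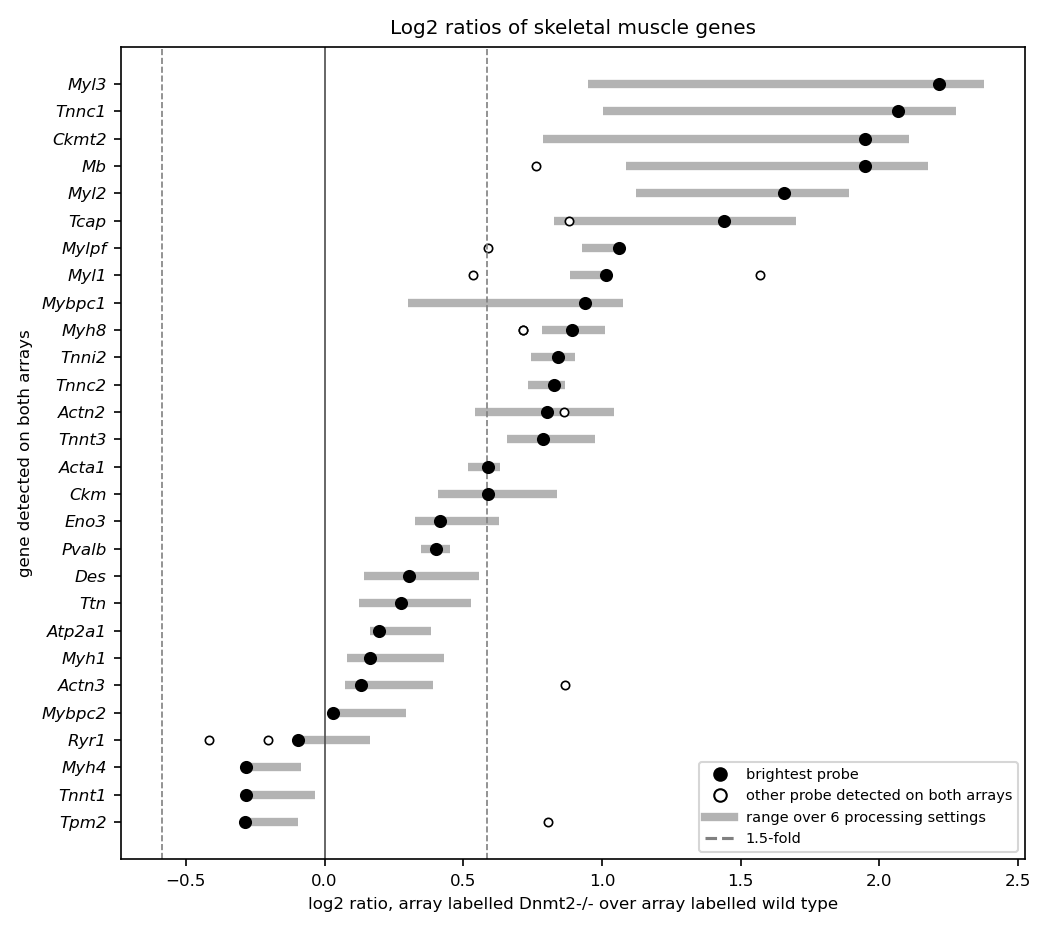
Log2 ratio (array labelled Dnmt2-/- over array labelled wild type) of the 28 muscle genes detected on both arrays, for the brightest probe (black), other probes detected on both arrays (open) and the range over 6 processing settings of the brightest probe (grey). Ratios run from -0.29 for Tpm2 to 2.22 for Myl3, and the widest ranges belong to the dim genes Myl3, Tnnc1, Ckmt2 and Mb.

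Several members had probes that differed in ratio. Among the 9 members with several probes detected on both arrays the SD between probes of a gene was 0.45 on the log2 ratio, against 0.29 over 3375 genes. The widest spreads were in Tpm2 and Actn3, whose probes lay on either side of 1.5-fold, and in Myl1 and Mb, whose probes all read higher on the array labelled Dnmt2-/-.

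The 3 fibre type groups did not behave as units. Of 6 slow fibre genes, 4 were detected on both arrays, with a median log2 ratio of 1.86 and values of 2.22 (Myl3), 2.07 (Tnnc1), 1.66 (Myl2) and -0.28 (Tnnt1). Tnni1 passed detection on just the array labelled Dnmt2-/- and Myh7 on neither, and over all 6 genes without a filter the median was 0.79. Of 7 fast fibre genes, 6 were detected on both arrays, with a median of 0.81: the troponins and Mylpf lay between 0.79 and 1.06, and Myh1 and Myh4 at 0.16 and -0.28. The developmental group came down to Myh8, at 0.89.

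The slow group held the highest values of the 3 groups, both slow and fast reached down to -0.28, and Myh8 lay within the range of the fast genes. The 3 high slow fibre genes were dim, their wild type signals lying between 100.2 and 158.1. Without background correction the slow and fast medians were 0.98 and 0.72. Without the detection filter the order turned, with 0.79 for all 6 slow genes and 0.81 for the fast genes. The difference between the groups was not tested, since 1 array per genotype allows no test.

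**Figure D3:**
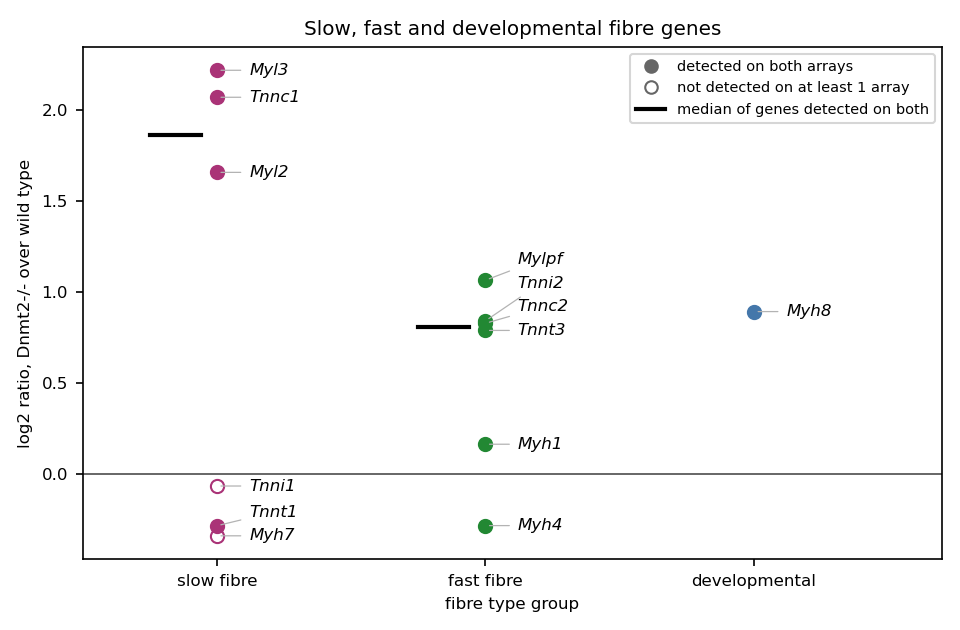
Log2 ratio (array labelled Dnmt2-/- over array labelled wild type) of slow fibre, fast fibre and developmental genes. Filled points were detected on both arrays, open points were not detected on at least 1, and bars give the medians of 1.86 and 0.81 for slow and fast genes. Slow fibre genes fall into a high part (Myl3, Tnnc1, Myl2) and a part at or below 0 (Tnnt1, Tnni1, Myh7).

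The members were also read against genes of like brightness. Genes detected on both arrays were divided at the median of their mean log2 intensity. Above it lay 15 members, of which 10 were higher by at least 1.5-fold, where 5.07% of all such genes were, and 3 by at least 2-fold, where 0.923% were. Below it lay 13 members, of which 6 were higher by that much, where 8.15% of all such genes were, and 5 by at least 2-fold, where 1.23% were. Their medians were 0.79 and 0.30. The members at ranks 2, 4, 6, 7, 13 and 22 of 9746 genes, counted from the highest log2 ratio, were Myl3, Tnnc1, Ckmt2, Mb, Myl2 and Tcap.

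**Figure D4:**
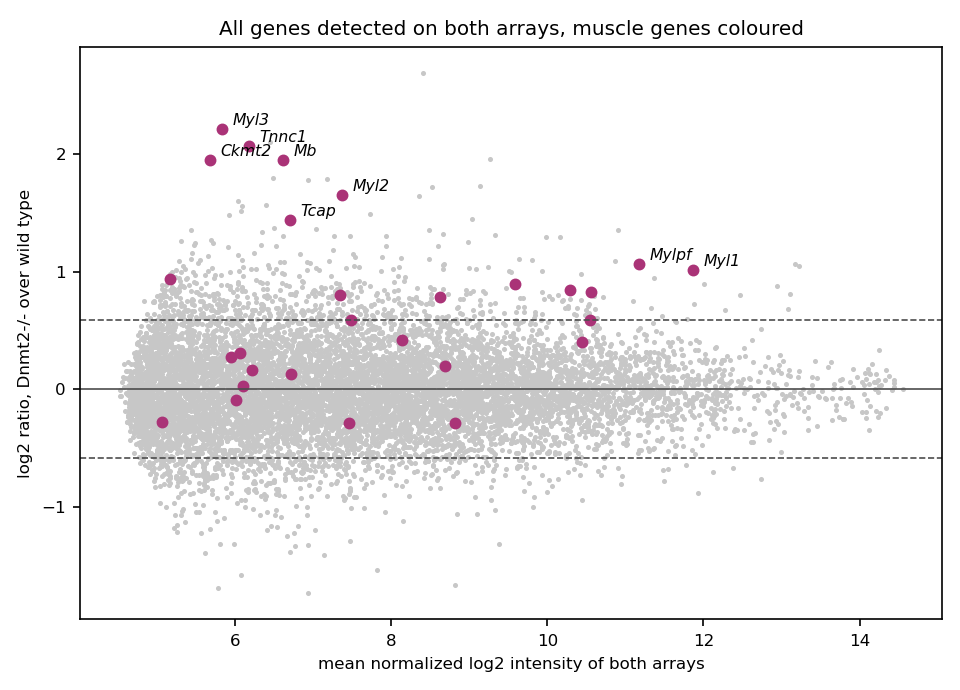
Log2 ratio (array labelled Dnmt2-/- over array labelled wild type) against mean normalized log2 intensity for 9746 genes detected on both arrays, with the 28 muscle genes coloured and those past 2-fold named. Dashed lines mark 1.5-fold. The most extreme muscle genes are dim, and Mylpf and Myl1 are bright and past 2-fold.

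Other muscle genes, 78 names in 4 lists, followed the members in part. Of 69 with a probe, 34 were detected on both arrays, with a median log2 ratio of 0.06. Of these 34, 7 were higher and 3 lower by at least 1.5-fold, where 6.61% and 5.16% of all genes were. Of the rest, 7 passed detection on just the array labelled Dnmt2-/-, 1 on just the other, and 27 on neither. The median of the 34 lay below the members' 0.69 and close to the -0.02 of all genes, while both shares past 1.5-fold lay above those of all genes. The same shares of all genes stand beside the counts of the single lists below.

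Other sarcomere and muscle structure genes had a median of 0.18 over 16 genes detected on both arrays, 5 higher and 2 lower by at least 1.5-fold. Csrp3, a Z disc protein of slow and heart muscle, was at 0.93, Myoz1, a calsarcin of fast fibres, at 0.73 and the dystrophin complex gene Sgca at 0.72. Myoz2, the calsarcin of slow fibres and heart, was undetected on the array labelled wild type and higher by at least 2.88-fold on the other in the main processing. Its ratio was 1.43-fold at the least over 6 processing settings, and its other probe was not detected on either array, at 88.8 and 92.5. Smyd1, a methyltransferase of striated muscle, gave different results by probe: the brightest read 125.2 and 104.4 (log2 -1.18, and -0.39 at the least over 6 processing settings), and the other, also detected on both arrays, read 100.5 and 108.1 (log2 0.06).

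Other energy genes had a median of 0.12 over 10 genes, and the 2 past 1.5-fold were Cox8b (1.30), a muscle subunit of cytochrome oxidase, and Fabp3 (1.03), a fatty acid carrier of heart and oxidative muscle. Ak1 and Ampd1 of nucleotide metabolism were at 0.27 and 0.22, and Art1, undetected on the array labelled Dnmt2-/-, was lower there by at least 1.57-fold. Other genes of excitation and calcium handling had a median of -0.06 over 4 genes, from Jph1 at -0.74 through Srl at -0.13 and Clcn1 at 0.01 to Hrc at 0.30, and Casq2, the calcium store protein of slow and heart muscle, was at least 1.23-fold higher.

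Regulators of muscle formation were mostly not detected. Of 16 measured genes of myogenic factors, satellite cells and the neuromuscular junction, 4 were detected on both arrays, none past 1.5-fold by the brightest probe. The probes of Myog, a myogenic factor of differentiating fibres, disagreed: the brightest read 109.85 and 125.0 (log2 0.16), and the other read 115.3 and 91.1 (log2 -1.32), undetected on the array labelled Dnmt2-/-. Cdh15, a cadherin of satellite cells, read 152.0 and 186.1 (log2 0.14), and Mef2c, also made in blood cells, read 516.0 and 589.8 (log2 -0.04), both well above background. The other Mef2c probes detected on both arrays ran from -0.48 to 0.36, and Chrne was at -0.11. Six4 was higher by at least 1.23-fold. Myod1, Myf5, Myf6 and Pax7 were not detected on either array.

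Among heart and smooth muscle markers, none detected on both arrays passed 1.5-fold. Of 12 measured heart markers 10 were not detected on either array, among them Myh6, Nppa, Tnni3, Myl7 and Mybpc3. The summed signal of the list, background included, was 2937.3 and 2943.4, of which Myl4 alone gave 1908.65 and 1805.95. Actc1 and Myl4, which developing skeletal muscle also makes, were at 0.39 and -0.18. Of 9 smooth muscle genes, 5 were detected on both arrays, with Actg2 at 0.27, Acta2 at 0.24, Myl9 at -0.08 and Smtn at -0.02. The brightest Acta2 probe read 898 and 1174.7, and Myl9 read 893.7 and 951.0. Tagln, Cnn1 and Lmod1 of the same list were not detected on either array, and Myh11 was higher by at least 1.29-fold. Adipoq and Lep, the 2 adipocyte genes detected on both arrays of 8 measured, were at -0.31 and -0.05, Cidea was at least 1.49-fold higher, and both measured Schwann cell genes were not detected.

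Many markers of skeletal connective tissue were higher on the same array as the muscle genes. Beside the counts that follow, 6.61% of all genes detected on both arrays were higher by at least 1.5-fold. In the tendon and connective tissue list, 5 of 9 genes were detected on both arrays and 4 of these were higher by at least 1.5-fold, with Lum at 1.30, Dcn at 0.73, Fmod at 0.68 and Tnc at 0.63. Its summed signal was 5371 and 9281, Mkx was at least 1.37-fold higher, and the tendon marker Tnmd was not detected on either array. In the cartilage list, 9 of 18 measured genes were detected on both arrays and 8 of these were higher by at least 1.5-fold. They were led by Col2a1 (1.96), Comp (1.78), Snorc (1.72) and Col10a1 (1.49), the summed signal was 2319.8 and 4766, and Hapln1 was at least 1.97-fold higher. The cartilage median of 1.48 was 0.66 without background correction.

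In the bone list, 6 of 10 genes detected on both arrays passed 1.5-fold, led by Ibsp (1.35), Col1a2 (1.09), Phex (1.04) and Sparc (0.81). The osteocalcin genes, bright genes of that list, were not higher: Bglap read 8734 and 7885 (log2 -0.05) and Bglap2 14299.6 and 12239 (log2 -0.14). Sparc, about as bright as Bglap, read 6687.6 and 11449.6 by its brightest probe. The bone list had a summed signal of 36498 and 44187. The summed signal of the 34 measured muscle genes was 14037 and 24197. The part of these tissues in the values of the muscle genes was not tested.

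**Figure D5:**
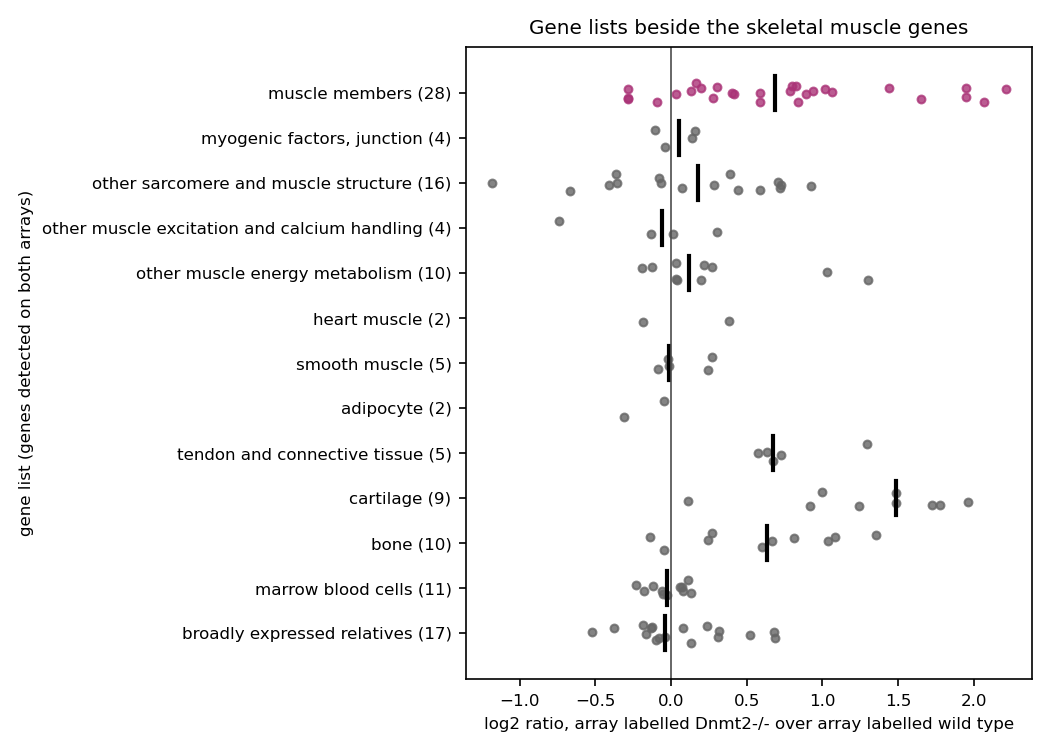
Log2 ratio (array labelled Dnmt2-/- over array labelled wild type) of genes detected on both arrays in the muscle member list and in the other lists, with the number of genes in brackets and bars for medians of lists with at least 4 genes. The members (median 0.69), cartilage (1.48), bone (0.63) and tendon (0.68) lie above 0, and smooth muscle (-0.01) and marrow blood cells (-0.03) lie near it.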

How the data were processed

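Per the labels' protocols, Trizol-extracted RNA was converted to biotin cRNA with an Illumina kit. The main deposited table pairs each linear signal intensity, background included, with a detection p-value. A second deposited table holds intensities normalized by the authors by an unstated method, with medians of 101.8 and 101.1, and served as an alternative.

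Probes were named from the platform annotation: 34885 had 1 gene, 18 had several and were not used, and 10378 were not named.

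Background was corrected with normexp in limma 3.58.1 (R 4.3.3), fitted from the detection p-values. An offset of 16 was added, which shrinks the ratios of dim genes, and log2 values were quantile normalized. For each gene the brightest probe was used. Where 1 array did not detect a gene, a lower limit of the fold is printed, from the higher of the dim value and the lowest normalized value among probes detected on that array. Unless stated, this limit is that of the main processing. A gene past 1.5-fold was called. A single array per genotype allowed no test, and the number of arrays limits the precision. The steps were tested on simulated data.

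All members are named; of each list outside them up to 4 genes with the largest log2 ratios detected on both arrays are named, with the largest bound. Myod1, Myf5, Myf6, Pax7, Bglap, Bglap2, the broadly expressed relatives and the undetected or defining markers of other cell types were added after their values were seen. The members and lists were chosen with earlier results of these data known. Alternatives were no background correction, an offset of 50, median scaling, cyclic loess, the authors' values, a detection p-value of 0.05, no filter, the mean over probes, a threshold of 2-fold and signal minus background.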

Additional observations from a re-analysis of the deposited data

How the results depend on the processing

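No paired analysis was possible because each group has 1 array, and the shared replicate number pairs nothing. With no replicates, a log2 value was said to move when it shifted by more than 0.29, the SD between probes of a gene over 3375 genes. The count of members higher by at least 1.5-fold was 16 and ran from 12 to 17 over 9 alternatives, and it was 8 at 2-fold. The share of all genes higher by at least 1.5-fold was 6.61% and ran from 1.91% to 13.8% over the same alternatives, and it was 1.08% at 2-fold. No member reversed past 1.5-fold. Over 6 settings of background, scaling and source, 12 of 28 members stayed past 1.5-fold (Ckmt2, Mb, Myh8, Myl1, Myl2, Myl3, Mylpf, Tcap, Tnnc1, Tnnc2, Tnni2 and Tnnt3), 24 were higher in each, 3 (Myh4, Tnnt1 and Tpm2) were lower in each, and Ryr1 changed sign. These counts over the 6 settings were not made for all genes. The median of the members ran from 0.48 to 0.85, that of fast fibre genes from 0.70 to 0.88 and Myh8 from 0.77 to 1.01. The slow fibre median of 1.86 was 0.98 without background correction, 1.37 with an offset of 50, 1.13 in the authors' values and 0.79 without the detection filter, where Myh7 and Tnni1 entered and the fast median of 0.81 was the higher. Of 259 alternative values for single members, 29 moved, of which 8 without background correction, 7 with an offset of 50 and 8 in the authors' values. Many of the 259 could not move. The 28 values at a detection p-value of 0.05 and the 28 without a filter keep the same ratio of the brightest probe. The mean over probes can change only the 9 members with several probes detected on both arrays. The mean over probes put Tpm2 at 0.26 and Actn3 at 0.50. An alternative chosen after seeing the data took signal minus background, centred on all genes, for 25 members at least 3 background SDs above it: Tnnc1 was then at 2.91, Mb at 2.51 and Tcap at 1.87, above the values with the offset, while without background correction they were at 1.00, 1.09 and 0.83, Myl3 at 0.95, Ckmt2 at 0.79 and the limit for Sln at 1.16. Ckmt2, Mybpc1 and Myl3 were too close to background for the subtraction.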

Other observations

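Broadly expressed relatives of the muscle genes, a list of 20 chosen after the data were in view, lay close to all genes by their median. Of 18 measured, 17 were detected on both arrays, with a median log2 ratio of -0.04 (array labelled Dnmt2-/- over array labelled wild type). Of the 17, 2 were past 1.5-fold upward and none downward, against 6.61% and 5.16% of all genes. The cytoskeletal actin Actb was at -0.16, where skeletal Acta1 was at 0.59. The non-muscle myosin heavy chains Myh9 and Myh10 were at -0.13 and 0.08, where perinatal Myh8 was at 0.89, and the non-muscle light chains Myl6 and Myl12b were at -0.19 and -0.08, where Mylpf was at 1.06.

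The tropomyosins Tpm1, Tpm3 and Tpm4 were at 0.31, 0.24 and 0.32. They lay above the -0.29 of the brightest Tpm2 probe and below the 0.81 of its other probe detected on both arrays. The calcium pumps of other cells, Atp2a2 (also the pump of slow and heart muscle) and Atp2a3, were at 0.52 and -0.10, where fast fibre Atp2a1 was at 0.20. The glycogen phosphorylases Pygl and Pygb were at -0.04 and -0.52, where muscle Pygm was not detected. The 2 relatives past 1.5-fold were the intermediate filament gene Vim (0.69, where Des was at 0.30) and the brain-type creatine kinase Ckb (0.68, where Ckm was at 0.59).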
